A study of Mus musculus with 9 samples.

Results

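The Clcn5 intron cluster is a group of miRNA hairpins transcribed with Clcn5 on the X chromosome, and 8 of its mature products were examined across 3 genotypes of mouse subcutaneous adipose tissue. The 8 were chosen by name as miRNAs from introns of Clcn5: miR-532-5p, miR-532-3p, miR-188-5p, miR-362-5p, miR-362-3p, miR-501-5p, miR-501-3p and miR-500-3p. All 8 were listed among the 860 mature miRNAs measured, and all 8 were among the 489 miRNAs tested (a mean log2 level of at least 3.46, and no less than 3 libraries with more than the lowest value). Small RNA of the fat under the skin was sequenced from 9 mice, 1 library each: 3 wild-type littermates (WT), 3 mice labelled as heterozygous (Hete_KO) and 3 labelled as homozygous (Homo_KO) for a knockout of Ago1 in endothelial cells. All 9 mice, WT included, were 24 weeks old, and all were fed high fat, high sucrose food for the last 16 of those weeks, having started at 8 weeks of age. The sources used here do not give the Cre driver or the sex of the mice. Each library holds RNA of the whole tissue, of which endothelial cells are 1 part.

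A clustered miRNA is cut from a shared primary transcript: Drosha releases each hairpin in the nucleus, Dicer cuts the hairpin in the cytoplasm, and 1 or both arms of the resulting duplex, named 5p and 3p, are kept by an Argonaute protein such as Ago1. Mature arms of 1 transcript can therefore reach different levels through unequal cutting, arm choice or decay. Clcn5, the host gene, encodes an endosomal exchanger of chloride and protons that is best known from the proximal tubule of the kidney and from Dent disease. Of the miRNAs, miR-188 is known in mouse bone marrow stromal cells for shifting their fate from bone towards fat, and miR-501 is known from mouse muscle satellite cells. In human tumour cells miR-362-5p is known to act on the deubiquitinase gene CYLD and miR-532-5p on the transcription factor gene RUNX3.

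By the GENCODE annotation of GRCm38 (mm10), Clcn5 occupies chromosome X from 7153810 to 7319358 on the minus strand, a length of 165549 bases. The 5 hairpins lie on the same strand between 7237683 and 7248497, within 10815 bases, and none overlaps an exon of Clcn5. In 3 of the 5 annotated Clcn5 transcripts all 5 hairpins fall in the same intron, which runs from 7213011 to 7316658 (103648 bases). In the direction of transcription Mir532 comes first, Mir188 starts 441 bases further on, Mir362 6451 bases, Mir501 7146 bases and Mir500 10723 bases. Mir362 and Mir501 are thus neighbours, and Mir532 and Mir188 form the other close pair.

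The mature sequences below, from RefSeq with the GRCm38.p6 assembly, are shown because the seeds (bases 2 to 8, in capitals) sort the cluster into families that cross the hairpins. All lie on the minus strand of chromosome X except miR-329-3p, a tested miRNA from outside the cluster that shares a seed with miR-362-3p and lies at chr12:109713541-109713562 on the plus strand. The other arms of 2 hairpins, miR-188-3p and miR-500-5p, were listed but had mean levels under the limit for testing. The member miR-532-5p matched no RefSeq sequence by name, so it is not printed and its seed was not compared.
miR-532-3p: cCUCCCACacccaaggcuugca
miR-188-5p: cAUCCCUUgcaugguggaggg
miR-188-3p: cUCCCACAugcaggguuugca
miR-362-5p: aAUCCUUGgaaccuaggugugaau
miR-500-5p: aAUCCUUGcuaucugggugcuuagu
miR-501-5p: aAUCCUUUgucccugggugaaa
miR-501-3p: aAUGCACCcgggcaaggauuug
miR-500-3p: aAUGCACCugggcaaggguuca
miR-362-3p: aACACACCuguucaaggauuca
miR-329-3p: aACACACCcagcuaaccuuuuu
The 3p arms of miR-500 and miR-501 share their seed and are the same at 18 of 22 positions. Counted from 1 at the 5′ end, and with the base of miR-500-3p first, they differ by U9C, G18A, C21U and A22G. The 5p arms of miR-362 and miR-500 share another seed, and miR-501-5p has the same first 7 bases as both but a different base 8. miR-188-3p begins with 8 bases that miR-532-3p holds from its position 2. The sources used here do not say how reads that fit more than 1 of these similar arms were assigned, so the levels of miR-500-3p and miR-501-3p are less certain than those of the others.

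The values are on a log2 scale on which every library holds nearly the same set of ranked values, so a level is a position in a shared ranking and read depth is unknown. As a trace of depth, the miRNAs that sat at the bottom value of their library numbered from 63 to 104 in WT, from 101 to 152 in Hete_KO and from 102 to 141 in Homo_KO. Muscle miRNAs ranged widely within each genotype, from a mean log2 level of 6.17 in Homo_KO replicate 2 to 14.35 in Hete_KO replicate 2. The mean of 6 epithelial miRNAs was 8.40 in Hete_KO replicate 1, and no other library was outside 4.59 to 5.76. Endothelial miR-126a, as the mean of its 2 arms, was 16.31 to 16.66 in WT, 15.68 to 16.05 in Hete_KO and 16.03 to 16.19 in Homo_KO. Only its less abundant arm, miR-126a-5p, set WT (14.95 to 15.34) apart from the knockouts (14.48 to 14.80). The more abundant miR-126a-3p was 17.58 in WT replicate 1 and also in Hete_KO replicate 1 and Homo_KO replicates 1 and 2. The mean of 4 leukocyte miRNAs was 12.19 to 12.51 in Homo_KO, above all WT mice (11.65 to 11.90), with Hete_KO at 11.43 to 12.06. Of the 4, miR-142a-5p and miR-150-5p were above WT in every Homo_KO mouse, while miR-142a-3p and miR-223-3p overlapped with WT. The part of leukocyte content in the Homo_KO differences below was not tested. Liver miR-122-5p was 7.48 in WT replicate 1, with 11.71 as the next lowest value. No list held a miRNA that defines adipocytes, and Ago1 mRNA was not analysed here.

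The cluster was of middling abundance in adipose tissue. Its 8 members together made up between 0.0338% (Hete_KO replicate 2) and 0.0516% (Hete_KO replicate 1) of a library's back-transformed abundance, and miR-532-5p alone gave 36.7% to 45.3% of that. By mean over the 9 libraries miR-532-5p ranked 127 of 860 miRNAs, miR-362-3p 160, miR-501-3p 198, miR-500-3p 205, miR-362-5p 214, miR-532-3p 249, miR-501-5p 257 and miR-188-5p 382. The order of mean log2 levels held 4 steps that were present in all 9 libraries. miR-532-5p, at 10.17, lay above miR-362-3p, at 9.16, which lay above miR-501-3p, at 8.16. miR-501-3p, miR-500-3p (7.97) and miR-362-5p (7.81) could not be put in order, since each was above the next in 5 and 6 of 9 libraries. All 9 libraries had miR-362-5p above miR-532-3p (6.88), which was above miR-501-5p (6.72) in 6 of 9, and miR-188-5p (5.04) was below miR-501-5p in all 9. The levels did not follow the order of the hairpins along the transcript: the first hairpin gave the highest member, and the next hairpin gave the lowest.

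**Figure D1:**
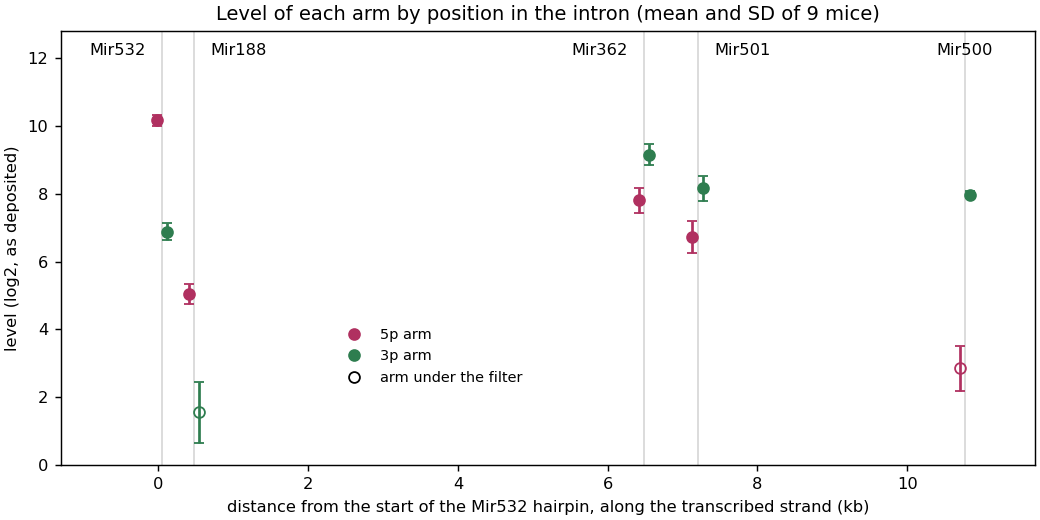
Mean log2 level of each mature arm over 9 libraries, against the distance (kb) of its hairpin from the start of Mir532 along the transcribed strand, with bars for the SD over the libraries and open points for arms that were not tested. The 5p arm is the higher one of miR-532 and miR-188, and the 3p arm is the higher one of miR-362, miR-501 and miR-500.

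Which arm was more abundant differed along the cluster. The 5p arm of miR-532 exceeded its 3p arm by 3.28 ± 0.26 on the log2 scale (SD, n = 9 libraries), a 9.74-fold difference. In the other direction, the 3p arm exceeded the 5p arm 2.54-fold for miR-362 (a 5p minus 3p difference of -1.35 ± 0.27), 2.72-fold for miR-501 (-1.44 ± 0.54) and 35.1-fold for miR-500 (-5.13 ± 0.67). The miR-188-3p level was between 0 and 3.12 in the 9 libraries and that of miR-500-5p between 1.59 and 3.77, so both were rare beside their partner arms. The change from 5p to 3p as the more abundant arm fell between the pair nearest the start of the cluster (miR-532 and miR-188) and the 3 hairpins further on.

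**Figure D2:**
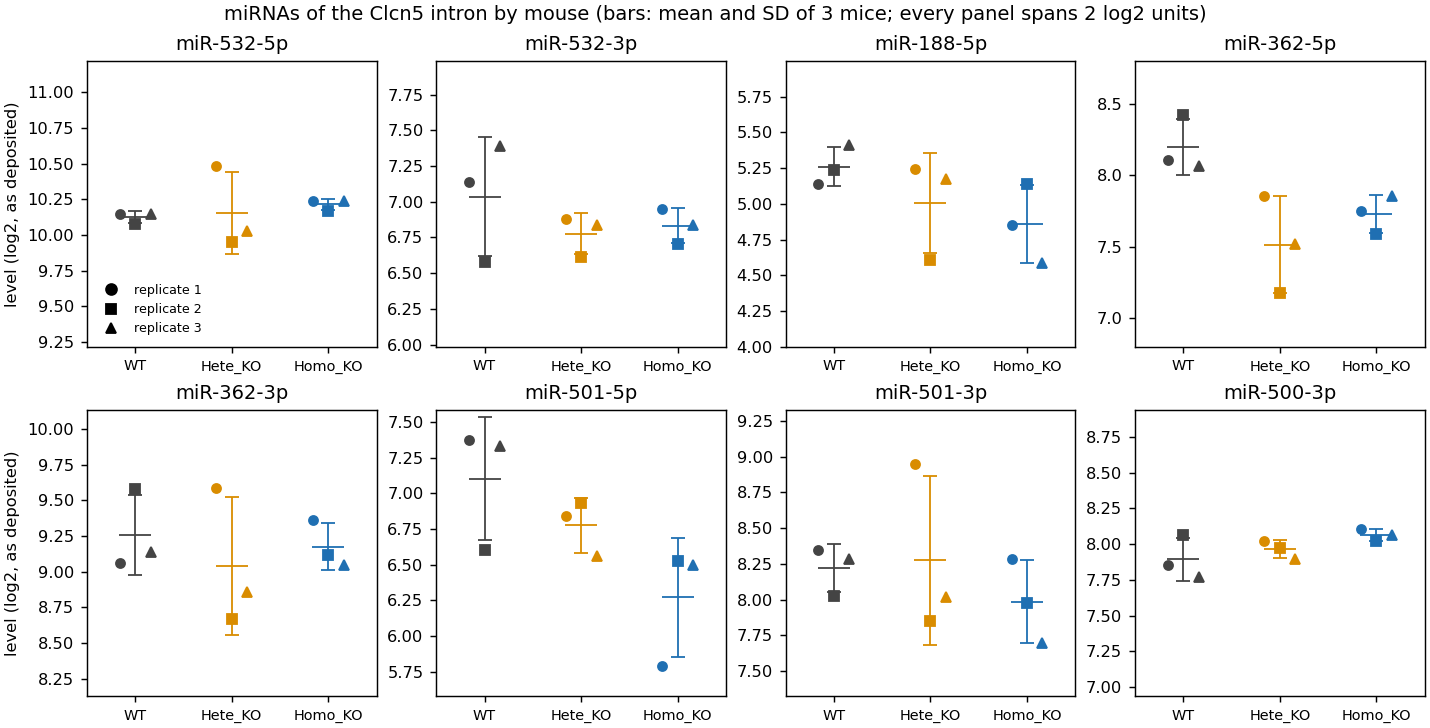
Log2 level of each of the 8 members in each of the 9 mice, by genotype, with bars for the mean and SD of the 3 mice and a symbol for each replicate. miR-362-5p is lower in all 6 knockout mice than in the 3 WT mice, miR-501-5p is lowest in Homo_KO, and miR-500-3p stays within a narrow band.

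Homozygous and wild-type mice were compared first, since this contrast asks which miRNAs differ when endothelial Ago1 is lost under the same diet. Of the 8 members, 6 had a lower mean level in Homo_KO than in WT and 2 a higher one, and none passed the test (limma, Benjamini-Hochberg adjusted p under 0.05 over 489 miRNAs, of which 3.27% passed). At an unadjusted p under 0.05 were 2 of the 8, miR-501-5p and miR-362-5p, a share close to the 23.9% of all tested miRNAs. The median log2 change of the members was -0.22, and that of all tested miRNAs 0.07, with 45.0% of them negative.

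miR-501-5p, the less abundant arm of its hairpin, had the largest difference of the members. Its log2 level was 7.37, 6.61 and 7.33 in WT replicates 1, 2 and 3 and 5.79, 6.53 and 6.50 in Homo_KO. Every Homo_KO mouse was below every WT mouse, though WT replicate 2 was only just above the highest Homo_KO mouse. The limma log2 change was -0.83 ± 0.27 (SE), with an unadjusted p of 0.0132 and an adjusted p of 0.126, and without Homo_KO replicate 1, the lowest mouse, it was -0.59. Hete_KO lay in between, at 6.84, 6.93 and 6.56, overlapping WT and just above Homo_KO.

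miR-362-5p was at 8.11, 8.42 and 8.06 in WT and at 7.75, 7.59 and 7.85 in Homo_KO, and these groups did not overlap. Its log2 change was -0.47 ± 0.20, with an adjusted limma p of 0.192. miR-188-5p was at 5.14, 5.23 and 5.41 in WT and at 4.85, 5.14 and 4.59 in Homo_KO, where the highest mouse was below the lowest of WT by less than these decimals show. Its log2 change of -0.40 ± 0.25 had an adjusted limma p of 0.372. In the other direction miR-532-5p was at 10.15, 10.08 and 10.15 in WT and 10.24, 10.17 and 10.24 in Homo_KO, again without overlap but with a log2 change of only 0.09 ± 0.15 (adjusted limma p of 0.737). So 3 members were lower without overlap, where 14.3% of all tested miRNAs were, and 1 was higher without overlap, where 18.4% were.

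The other 4 members overlapped between Homo_KO and WT. The log2 change was -0.20 ± 0.21 for miR-532-3p, -0.08 ± 0.25 for miR-362-3p, -0.23 ± 0.28 for miR-501-3p and 0.17 ± 0.13 for miR-500-3p, with adjusted limma p-values of 0.450 to 0.831. Their 95% intervals still allowed changes of some size: that of miR-501-3p ran from -0.87 to 0.40 and that of miR-500-3p from -0.13 to 0.47. In each hairpin with both arms tested, miR-532, miR-362 and miR-501, the minor arm had the larger difference from WT in size. The minor arm is 5p in miR-362 and miR-501 and 3p in miR-532, where miR-532-5p changed by 0.09.

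In heterozygous mice miR-362-5p was the member that differed most from WT. It was at 7.85, 7.18 and 7.52 in Hete_KO replicates 1, 2 and 3, all below the 3 WT mice. The log2 change was -0.68 ± 0.20, or 0.624-fold, with an unadjusted limma p of 0.00649 and an adjusted p of 0.118. None of the 8 members passed the adjusted threshold, as against 0.409% of all tested miRNAs, and miR-362-5p was the 1 member under an unadjusted p of 0.05, where 15.7% of all were. It was also the 1 member without overlap, which 8.59% of all tested miRNAs showed in the lower direction.

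The remaining 7 members overlapped between Hete_KO and WT. Of all 8 members, 5 had a lower mean and 3 a higher mean than WT, with a median log2 change of -0.24 against -0.02 over all tested miRNAs, of which 52.6% were negative. miR-501-5p had a log2 change of -0.33 ± 0.27 (adjusted limma p of 0.616), and leaving out WT replicate 1, 2 or 3 gave -0.19, -0.57 and -0.21, and leaving out Hete_KO replicate 3 gave -0.22. Changes of the others ran from -0.26 for miR-532-3p to 0.07 for miR-500-3p. The side of the threshold on which miR-362-5p fell turned on 1 mouse: without Hete_KO replicate 1 its adjusted limma p was 0.0437. Without the 3 libraries highest in muscle miRNA, which leaves 1 WT mouse, its log2 change was -0.38. Hete_KO replicate 1, the library with the high epithelial miRNAs, was the highest of the 9 for miR-532-5p (10.48), miR-362-3p (9.59) and miR-501-3p (8.95), and without this library the Hete_KO differences of miR-532-5p and miR-501-3p from WT changed sign, to -0.13 and -0.28.

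Homozygous and heterozygous mice were then compared with each other. None of the 8 members passed the test (limma, adjusted p; 0.0% of all tested miRNAs passed), and 0 of 8 had an unadjusted p under 0.05, where 8.38% of all did. Of the 8, 3 were lower in Homo_KO, as 42.9% of all tested miRNAs were. The lowest p was that of miR-501-5p, with a log2 change of -0.50 ± 0.27 and an adjusted limma p of 0.662. Its 95% interval, from -1.11 to 0.11, left room for a sizeable difference. miR-501-5p was also the 1 member whose Homo_KO mice all lay below the Hete_KO mice, as 3.27% of all tested miRNAs did. miR-362-5p differed by 0.21 ± 0.20, and the interval from -0.23 to 0.65 left room for either knockout group to be the lower one.

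With both knockout groups set together against WT, in a contrast that shares its libraries with those above, miR-362-5p and miR-501-5p had nearly equal differences. The log2 change was -0.57 ± 0.17 for miR-362-5p (adjusted limma p of 0.0852) and -0.58 ± 0.23 for miR-501-5p (0.188). None of the 8 members passed, as against 8.38% of all tested miRNAs, while 2 of 8 had an unadjusted p under 0.05, as against 22.1%. A lower mean than WT was found for 6 of the 8 members and for 48.7% of all tested miRNAs. miR-362-5p was lower without overlap in the 6 knockout mice than in the 3 WT mice, which 6.13% of all tested miRNAs were. Without Hete_KO replicate 1 its adjusted limma p was 0.0297, and without the 3 libraries highest in muscle miRNA (Hete_KO replicate 2 and WT replicates 1 and 2) its log2 change was -0.36. That fit leaves 1 WT mouse, whose spread is assumed to be that of the other groups, so no p is set beside it. In a moderated F-test over the 3 genotypes none of the 8 passed (1.23% of all did), with adjusted limma p-values of 0.184 for miR-362-5p and 0.248 for miR-501-5p, the 2 members with an unadjusted p under 0.05.

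**Figure D3:**
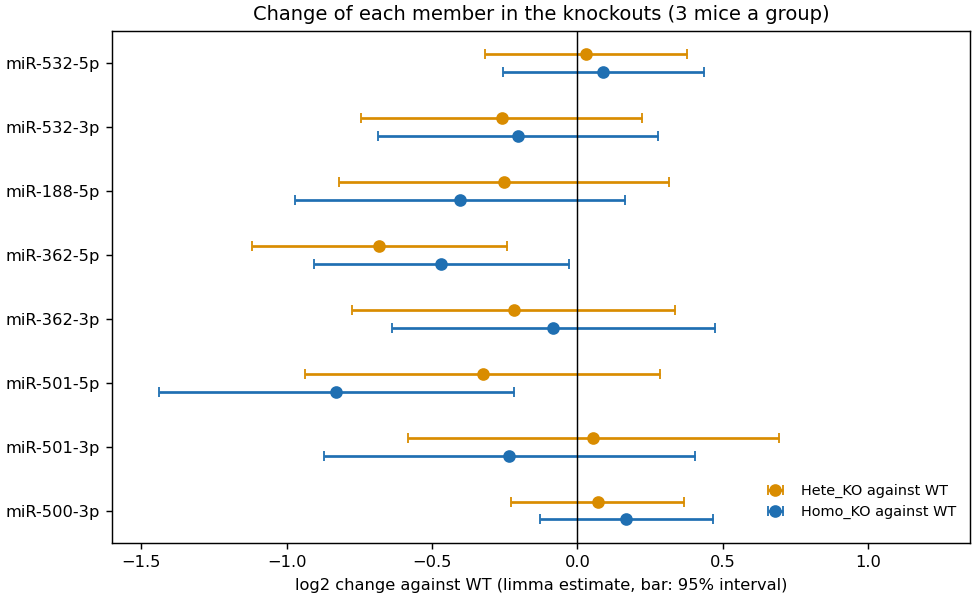
Limma log2 change of each member in Hete_KO and in Homo_KO against WT, with bars for the 95% interval. The intervals of miR-362-5p in both knockouts against WT and of miR-501-5p in Homo_KO against WT leave out 0 before adjustment, and no member passes after adjustment over 489 miRNAs.

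The balance of the 2 arms of miR-362 was compared next, because both arms come from 1 hairpin. The 5p minus 3p difference was -0.96, -1.16 and -1.07 in WT, -1.74, -1.50 and -1.34 in Hete_KO and -1.62, -1.53 and -1.20 in Homo_KO. The 5p arm was thus the less abundant one in WT too. All 6 knockout mice were below all 3 WT mice, so the 5p share of the pair was smaller in each knockout mouse than in WT. Groups of arm differences without overlap in the lower direction were found in 9.22% of 141 hairpins for Homo_KO, 9.93% for Hete_KO and 4.96% for both. Each knockout group against WT gave a two-sided exact permutation p of 0.1, the smallest that 3 mice against 3 can give. For both groups together the mean difference was -0.42 with an exact permutation p of 0.0238, which became 0.286 after adjustment over 12 such tests. In limma over the 141 hairpins with both arms tested, the adjusted p was 0.408 in Homo_KO, 0.478 in Hete_KO and 0.232 for both, so the arm balance of miR-362 did not pass, as 0.709%, 0.0% and 0.709% of the hairpins did.

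In miR-501 the 5p minus 3p difference was -0.97, -1.42 and -0.96 in WT, -2.11, -0.92 and -1.46 in Hete_KO and -2.49, -1.45 and -1.20 in Homo_KO. The groups overlapped, and the 2 lowest values came from replicate 1 of each knockout group. The arms of miR-532 were as little separated, with exact permutation p-values of 0.4 in Homo_KO and 0.3 in Hete_KO against WT.

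**Figure D4:**
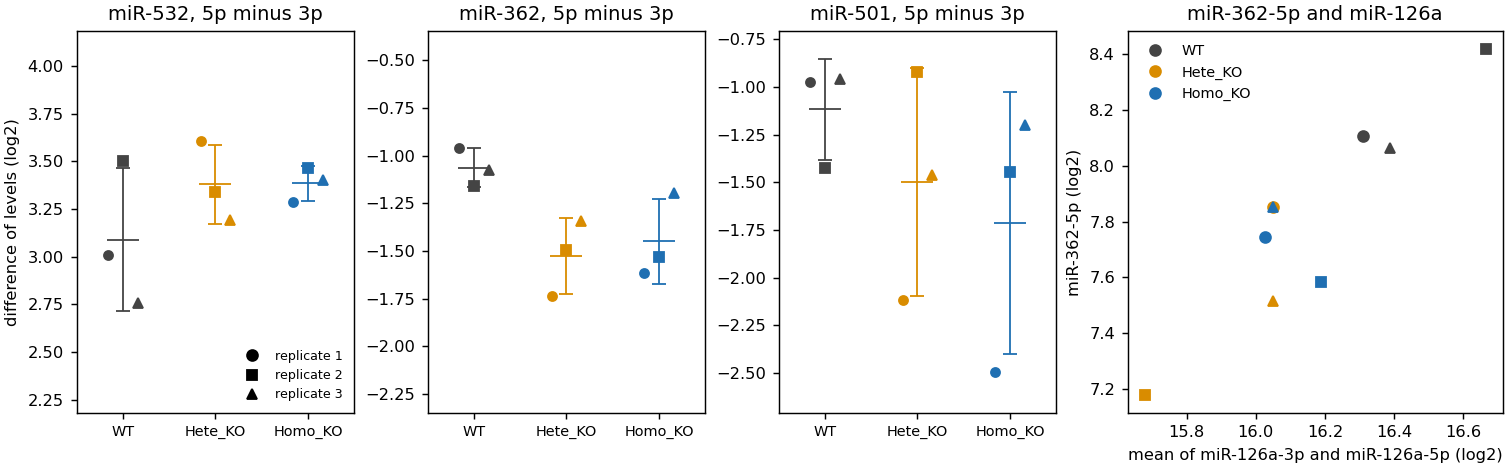
The first 3 panels give the 5p minus 3p log2 difference of miR-532, miR-362 and miR-501 in each mouse by genotype, with bars for the mean and SD, and miR-362 is lower in all 6 knockout mice. The last panel gives the log2 level of miR-362-5p against the mean log2 level of the 2 arms of endothelial miR-126a in the 9 libraries, in which the 3 WT mice have the highest values on both axes.

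Of the 8 members, miR-362-5p had the highest correlation with miR-126a, a miRNA of endothelial cells. Over the 9 libraries Pearson's r with the mean of the 2 miR-126a arms was 0.91 (exact permutation p of 0.00154, adjusted p of 0.0494 over 32 relations of members with library measures). Spearman's rho was 0.82 (exact permutation p of 0.00931, adjusted 0.298), and r was 0.66 without the 2 libraries farthest from the median of miR-126a. Part of the relation is shared with genotype, since WT was highest in both. The r of the deviations from the genotype means was 0.71, with no test run on it. In WT the mouse highest in miR-126a was also highest in miR-362-5p. In Hete_KO replicates 1 and 3 were level in miR-126a (16.05 in each), with miR-362-5p at 7.85 and 7.52. Hete_KO replicate 2 was the lowest of its group in both (15.68 and 7.18). In Homo_KO the mouse highest in miR-126a (replicate 2, 16.19) was the lowest in miR-362-5p (7.59). Of the other members, miR-188-5p had an r of 0.69 with miR-126a (exact permutation p of 0.0358, adjusted 0.207) and miR-362-3p 0.58 (0.0966, adjusted 0.386). The rest ran from -0.17 for miR-500-3p to 0.22 for miR-532-3p. In bulk tissue, fewer cells of a type and less RNA per cell cannot be told apart, and the part of endothelial content in the miR-362-5p difference was not tested.

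The count of miRNAs at a library's bottom value, which was smaller on average in WT, moved with several members too. Pearson's r was -0.81 for miR-532-3p (exact permutation p of 0.00741, adjusted 0.119, rho -0.69) and -0.72 for miR-362-5p (exact permutation p of 0.0298, adjusted 0.207, rho -0.76). Without the 2 libraries farthest from the median of that count these r values were -0.62 and -0.52. With that count as a covariate the limma log2 change of miR-362-5p was -0.51 in Hete_KO and -0.30 in Homo_KO against WT. Both differences were smaller but in the same direction, with adjusted limma p-values of 0.440 and 0.509. The median log2 change of the members was then -0.06 in Hete_KO and 0.04 in Homo_KO, and that of all tested miRNAs 0.03 and 0.13. The part of depth in these differences was not tested.

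Whether the members move together was asked over the 28 pairs they form. The median Pearson r over the 9 libraries was 0.28, where the median of all 119316 pairs of tested miRNAs was 0.02. Of the 28 pairs 21 were positive, a share of 75.0% as against 51.6% of all pairs, 6 were above 0.5 (21.4% as against 14.1%) and 3 were below -0.5 (10.7% as against 12.0%). No pair passed Benjamini-Hochberg adjustment over the 28.

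**Figure D5:**
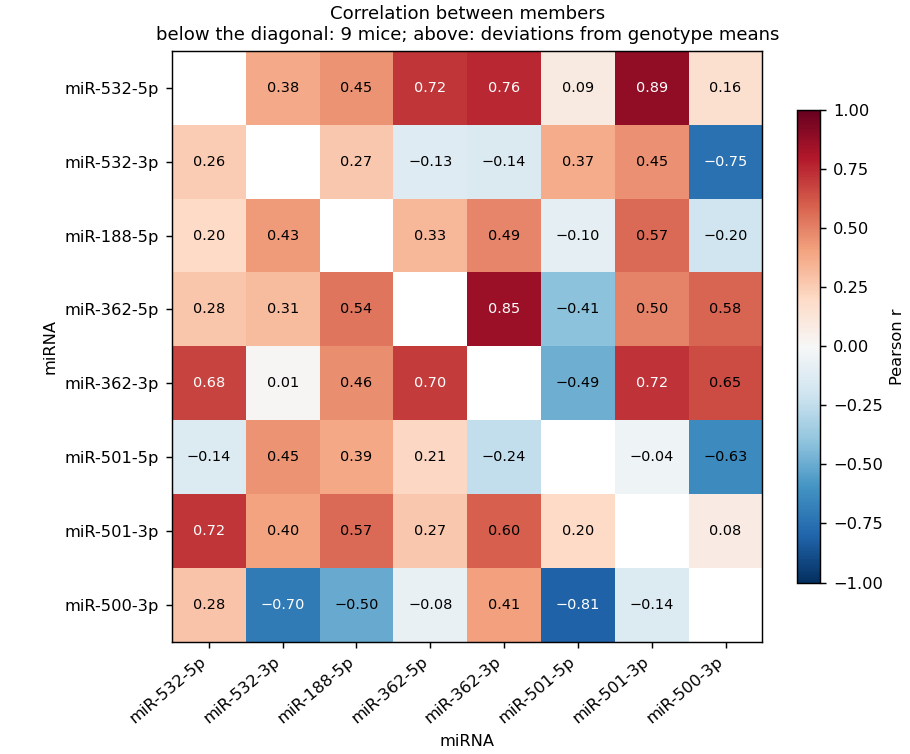
Pearson r between each pair of members over the 9 libraries (below the diagonal) and over the deviations from the genotype means (above it), with members in the order of transcription. Below the diagonal most pairs are weakly positive, miR-532-5p, miR-362-3p and miR-501-3p form the most positive group, and miR-500-3p is negative with miR-501-5p and miR-532-3p.

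Of the 6 pairs above 0.5, that of miR-532-5p and miR-501-3p had the highest r, 0.72 (exact permutation p of 0.0406, adjusted 0.233), with a rho of 0.35. Its r was -0.06 without the 2 farthest libraries and 0.22 without Hete_KO replicate 1 alone. For each pair, the 2 farthest libraries are those farthest from the median of the member transcribed first. Leaving them out narrows the range of that member, which can lower r by itself. miR-532-5p and miR-362-3p had an r of 0.68 (exact permutation p of 0.0416, adjusted 0.233) and a rho of 0.59, with an r of 0.11 without the 2 farthest libraries. These are the 3 members that were highest in Hete_KO replicate 1. Of them miR-532-5p and miR-501-3p had an r of 0.82 and 0.81 with the epithelial mean (adjusted exact permutation p of 0.207 for both). Both r values fell, to 0.02 and -0.25, without the 2 libraries farthest from the median of that mean. The part of epithelial content in their levels was not tested.

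The 2 arms of miR-362 had an r of 0.70 (exact permutation p of 0.0356, adjusted 0.233) and a rho of 0.59. Their r was 0.20 without the 2 farthest libraries and 0.80 without Hete_KO replicate 1 alone. The arms of miR-532 had an r of 0.26 and those of miR-501 0.20, where the median over 141 hairpins was 0.48. The most negative pair was miR-501-5p with miR-500-3p, at -0.81 (exact permutation p of 0.00703, adjusted 0.197) and a rho of -0.81 (exact permutation p of 0.0116, adjusted 0.326), and r was -0.75 without the 2 farthest libraries. miR-500-3p and miR-532-3p had an r of -0.70 (exact permutation p of 0.0339, adjusted 0.233) and a rho of -0.42. Their r was 0.16 without the 2 farthest libraries, WT replicates 1 and 3, which were highest in miR-532-3p (7.14 and 7.39). Without Hete_KO replicate 1 alone it was -0.71. miR-500-3p was the steadiest member, with a range of 0.34 over the 9 libraries, while miR-501-5p, from the neighbouring hairpin, had the widest at 1.58.

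Once the genotype means were removed, the median r of the 28 pairs was 0.35, as against 0.03 over all tested pairs. The arms of miR-362 (0.85) and the pair of miR-532-5p and miR-501-3p (0.89) were then the closest. The median moved with single libraries: it was 0.04 without Hete_KO replicate 1, 0.17 without Hete_KO replicate 2 and 0.51 without WT replicate 2. The median r of the levels themselves was 0.23 to 0.38 with 1 library left out.

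Among the seed families, the sum of miR-500-3p and miR-501-3p kept within 8.89 to 9.56 on the log2 scale in the 9 libraries. miR-500-3p gave 34.4% to 56.3% of that sum, so either of the 2 could be the major one. The family of miR-362-5p and miR-500-5p was nearly all miR-362-5p (94.8% to 98.6%) and followed it, with a log2 sum of 8.23 ± 0.19 (SD over 3 mice) in WT, of 7.55 ± 0.35 in Hete_KO and of 7.78 ± 0.16 in Homo_KO. The level of miR-329-3p, the chromosome 12 partner of miR-362-3p, was 7.39 ± 0.05 in the WT mice, 6.62 ± 0.55 in the Hete_KO mice and 6.44 ± 0.63 in the Homo_KO mice, with log2 changes of -0.77 (adjusted limma p of 0.312) and -0.95 (0.161). miR-362-3p made up 78.5% of that shared seed in WT, 84.4% in Hete_KO and 86.7% in Homo_KO on average.

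Outside the cluster, the miRNAs most like the mean of the 8 members over the 9 libraries were miR-139-5p (Pearson r of 0.92), miR-23b-3p (0.92), miR-541-5p (0.92), miR-222-3p (0.90) and miR-342-3p (0.89), out of 481 compared. On deviations from the genotype means they were miR-429-3p (0.99), miR-667-3p (0.91), miR-200c-3p (0.90), miR-200b-3p (0.90) and miR-200a-3p (0.89), of which all but miR-667-3p are in the epithelial list. Without Hete_KO replicate 1 these 5 had values of 0.92, 0.37, 0.27, -0.16 and -0.05, in the same order.

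Other X-linked miRNAs gave a comparison with the same chromosome. The 36 tested ones outside the cluster had a median log2 change of -0.04 in Homo_KO against WT, with 19 of 36 negative and 4 called lower by limma after adjustment, which were miR-503-5p, miR-351-5p and both arms of miR-221. Over all tested miRNAs 45.0% were negative and 3.27% were called in either direction. An unadjusted limma p under 0.05 was found for 14 of the 36 and for 23.9% of all tested miRNAs. In Hete_KO against WT the 36 had a median of -0.16 and 22 were negative, where the members' median was -0.24. There limma called 0 of the 36 after adjustment and 10 at an unadjusted p under 0.05. Over all tested miRNAs 52.6% were negative, 0.409% were called and 15.7% had an unadjusted p under 0.05. In Homo_KO, 2 smaller sets of X-linked miRNAs had only negative changes. These were 3 of 3 tested arms of miR-221 and miR-222 (median -0.95) and 5 of 5 of miR-322, miR-503 and miR-351 (median -0.56). Tested X-linked arms of miR-542, miR-450a and miR-450b were not part of these sets. Of the Clcn5 intron members 6 of 8 were negative (median -0.22). The difference between these sets was not tested.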

How the data were processed

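Small RNA of 9 mice, 3 per genotype label, was extracted with Trizol and prepared with a TruSeq kit, per the labels' protocols, and the build was mm10, per the submitters' processing notes. The deposited values are log2 values of mature miRNAs from 0 to 19.993. They were treated as quantile-normalized by the authors, since all 9 libraries share 1 highest value and the top 489 ranked values differ between libraries by a median of 0.0224 (at most 0.184). Read depth is unknown, so no counting interval is given. The file name speaks of FPKM. The sources used here name no aligner, counter or normalization.

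The values appear to hold 1 added before the logarithm, so back-transformed abundances are 2 to the power of the value, less 1, and no further pseudocount was added. Filtering kept 489 miRNAs and left out 371. limma 3.58.1 in R 4.3.3 (variance trend, all 9 libraries, no covariate) was fitted over all 489 and used Benjamini-Hochberg adjustment. It was tested on simulated data, where recovery had a pass mark only for planted changes larger than those of the members. Its power for changes as small as theirs is not given here. Log2 changes understate those of rare miRNAs. Correlations and arm differences used exact permutation tests. The members, lists, markers and tests were chosen with earlier results of these data known. Described by name were the 8 members, the other arms of their hairpins, miRNAs sharing their seeds, the 5 most like their mean on each measure, and called X-linked miRNAs. Of the 8 members 7 matched a mature sequence in RefSeq, and 405 of the 489 tested miRNAs matched a RefSeq location by name.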

Additional observations from a re-analysis of the deposited data

How the results depend on the processing

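Directions of the members mostly held under the alternatives run: no filter or a stricter one, a pseudocount of 10, scaling to the median, a second quantile normalization, weights for samples, no variance trend, covariates, a fit of only 2 groups, and 1 library left out at a time. miR-188-5p, miR-362-5p and miR-501-5p stayed lower than WT in both knockouts under all of them (miR-188-5p was not tested with the stricter filter). With sample weights limma called 1 member in Homo_KO (miR-501-5p), where 74 of all 489 tested miRNAs were called. It called 1 in Hete_KO (miR-362-5p), where 34 of 489 were, and 2 in both knockouts against WT, where 88 of 489 were. With an epithelial covariate, chosen after seeing the data, it called 1 in both knockouts (miR-362-5p), where 49 of 489 were. Leaving out 1 library in turn gave 0 to 1 called members. The 1 was miR-362-5p without Hete_KO replicate 1, in Hete_KO (24 of 489 called) and in both knockouts against WT (49 of 489).

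All-miRNA counts moved more. Against 16 calls in Homo_KO versus WT, limma gave 9 with no filter, 25 with the stricter filter, 74 with sample weights, 3 with a muscle covariate, 0 with the lowest-value number as covariate, 8 without the 3 libraries highest in muscle miRNA and 38 with the epithelial covariate. For Hete_KO versus WT, against 2, these were 10 (stricter), 1 (no trend), 34 (weights), 0 (lowest-value), 10 (muscle libraries out), 1 (only the groups compared) and 10 (epithelial). Homo_KO versus Hete_KO, with 0, had 4 without the muscle libraries. Both knockouts, against 41, had 27 (no trend), 88 (weights), 16 (muscle), 0 (lowest-value) and 9 (muscle libraries out). The F-test, against 6, had 16 (stricter), 3 (no trend), 52 (weights), 0 (lowest-value), 11 (muscle libraries out) and 10 (epithelial). With 1 library left out in turn the counts ran from 2 (without Homo_KO replicate 1) to 25, from 1 to 24 (without Hete_KO replicate 1), from 0 to 0, from 1 (without WT replicate 1) to 49 and from 0 to 17, in the same order.

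The labels do not say what the replicate numbers mark. Same-numbered libraries correlated at -0.28 to 0.55 (median 0.38, 5 of 9 pairs above 0.1) and differently numbered ones at -0.70 to 0.54 (median -0.12, 6 of 18), so not every pair was above 0.1 and the block was kept as an alternative. With the replicate block the counts were 25, 15, 0, 33 and 16, with 0 members called.

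Small member changes turned sign. In Homo_KO against WT the lowest-value covariate gave 0.15 for miR-532-3p, 0.00803 for miR-362-3p and 0.080 for miR-501-3p, and miR-362-3p was 0.042 without the muscle libraries and -0.18 to 0.078 with 1 library left out. In Hete_KO against WT miR-532-5p was -0.049 (weights), -0.15 (epithelial) and -0.13 to 0.13 (1 library out), miR-532-3p 0.095 (lowest-value), miR-362-3p 0.089 (muscle libraries out), miR-500-3p -0.00012 (lowest-value), and miR-501-3p -0.14 (weights), -0.35 (epithelial) and -0.28 to 0.27 (1 library out). In Homo_KO against Hete_KO miR-532-5p was -0.042 (muscle libraries out) and -0.042 to 0.22 (1 library out), miR-532-3p -0.050 (muscle), -0.0265 (muscle libraries out) and -0.0265 to 0.12 (1 library out), miR-362-3p -0.047 (muscle libraries out) and -0.047 to 0.41 (1 library out), and miR-501-3p -0.50 to 0.050 (1 library out). In both knockouts against WT miR-532-5p was -0.063 (epithelial) and -0.022 to 0.11 (1 library out), miR-532-3p 0.12 (lowest-value), miR-362-3p 0.065 (muscle libraries out) and -0.29 to 0.00947 (1 library out), and miR-501-3p 0.22 (lowest-value) and -0.26 to 0.017 (1 library out). The cause of these changes was not tested.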
